A study of Mus musculus with 29 samples.

Results

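Levels of 10 genes that serve fatty acid uptake and lipid droplets were examined in the liver of young and aged mice, with and without the MDM2 inhibitor HDM201. The 10 genes were Cd36, Fabp4, Pparg, Mogat1, Plin2, Plin4, Plin5, Cidea, Cidec and Cideb, found by name among the 55421 gene entries of the count table, and all 10 were found. Levels are given as CPM, the reads on a gene scaled to a common library total. The 10 genes were chosen by function, with their CPM per mouse over the 6 groups already known from earlier results. For that reason every value below, including the fold changes and false discovery rates (FDR) from the fits over all genes, describes these mice and is not an independent test of the 10 genes.

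Whole liver was profiled by polyA RNA-seq. Aged mice were C57BL/6J, labelled 20 months for females and 24 months for males, and received either HDM201 at 10 mg/kg or its phosphate-buffered methylcellulose vehicle by oral gavage each day for 14 days. Young mice were C57BL6/N, labelled 5 months, and received the vehicle. HDM201 blocks the binding of MDM2 to p53. Age could therefore not be told apart from substrain in either sex, nor sex from age among the aged mice, and no group of young mice received HDM201. The methods give slightly different ages for females and young mice. Counts covered 27 mice, namely 5 young vehicle, 4 old vehicle and 5 old HDM201 females, and 4 young vehicle, 4 old vehicle and 5 old HDM201 males. FPKM values, which are scaled by transcript length and library size, covered 29 mice and added male 1 of the old vehicle group and male 5 of the young vehicle group.

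Hepatocytes store surplus fatty acids as triglyceride in lipid droplets. CD36 brings long-chain fatty acids across the plasma membrane, and FABP4 carries them in the cytosol of adipocytes, macrophages and capillary endothelium. PPARG is the nuclear receptor that drives fat storage in adipose tissue and, when raised in the liver, turns on Cd36, Cidea, Cidec, Plin4, Mogat1 and Fabp4, a group of genes known from fatty liver. Perilipins coat the droplets and set the access of lipases. CIDE proteins sit at droplet contacts, where CIDEA and CIDEC pass lipid from smaller to larger droplets. PPARG binds DNA with RXR at the DR1 element, a direct repeat of the hexamer AGGTCA with 1 base between the copies.

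RefSeq promoter windows (GRCm38.p6, from 250 bases before to 50 bases after a transcript start) were read for 8 of the 10 genes, 12 windows in all, to show the DNA at transcript starts of the genes described below. The exact DR1 repeat was searched on both strands and was found in 0 of the 12 windows, against 0.0396% of all 32851 windows, and a looser form with any base as the 4th of each hexamer also in 0 of 12, against 0.381%. The single hexamer AGGTCA lay in 6 of the 12 windows, those of Cd36, Plin2, Plin5 (both windows) and Pparg (2 of 3), while 16.3% of all windows held it. The windows of Plin4, Cidec, Cideb and Mogat1 held no match to these letters. Windows of the same gene share sequence, and a match in letters is not a site. One window is shown for each of the 4 genes with a match, 5′ to 3′ on the strand of the gene, with the hexamer in capitals, which reads TGACCT where it lies on the other strand. It begins 228 bases before the transcript start of the window shown for Cd36, 9 for Pparg, 218 for Plin2 and 170 for Plin5. The Cd36 and Pparg windows shown lie inside the bounds of their genes, not at the outermost 5′ ends.
Cd36, chr5:17835847-17836146, minus strand: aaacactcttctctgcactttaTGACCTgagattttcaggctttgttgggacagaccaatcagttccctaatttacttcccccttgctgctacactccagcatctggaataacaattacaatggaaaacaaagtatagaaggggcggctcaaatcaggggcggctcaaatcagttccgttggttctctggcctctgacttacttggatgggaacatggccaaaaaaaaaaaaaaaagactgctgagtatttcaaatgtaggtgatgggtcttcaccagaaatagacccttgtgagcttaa
Pparg, chr6:115362099-115362398, plus strand: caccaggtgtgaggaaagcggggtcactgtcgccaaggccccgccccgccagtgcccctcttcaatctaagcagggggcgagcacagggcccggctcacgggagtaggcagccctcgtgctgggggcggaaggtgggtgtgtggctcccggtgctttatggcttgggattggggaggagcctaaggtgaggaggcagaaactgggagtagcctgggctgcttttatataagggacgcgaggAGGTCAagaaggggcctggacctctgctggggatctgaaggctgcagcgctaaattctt
Plin2, chr4:86670010-86670309, minus strand: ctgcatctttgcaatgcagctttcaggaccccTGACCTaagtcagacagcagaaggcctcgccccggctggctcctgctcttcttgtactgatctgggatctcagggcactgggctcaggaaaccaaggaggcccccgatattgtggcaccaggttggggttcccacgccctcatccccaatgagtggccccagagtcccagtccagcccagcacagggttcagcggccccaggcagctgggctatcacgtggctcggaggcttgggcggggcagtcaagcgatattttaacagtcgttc
Plin5, chr17:56117499-56117798, minus strand: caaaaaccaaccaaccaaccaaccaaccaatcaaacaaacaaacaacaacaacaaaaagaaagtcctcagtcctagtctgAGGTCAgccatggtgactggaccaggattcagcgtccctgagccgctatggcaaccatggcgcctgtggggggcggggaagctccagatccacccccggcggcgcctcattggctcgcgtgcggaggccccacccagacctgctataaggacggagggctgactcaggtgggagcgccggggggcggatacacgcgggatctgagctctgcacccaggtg

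Total counts on genes lay between 16485900 and 23570458 per mouse. The hepatocyte markers Alb, Apoa1, Ttr, Apoc3, Cps1, Hnf4a, Tat and Cyp2e1 summed to between 8.01e+04 and 1.63e+05 CPM, and all 8 were above 0 in every group. Markers of macrophages did not stay level. Their sum over 11 genes ran from 206 to 310 CPM in young females, 319 to 639 in old vehicle females, 195 to 322 in old HDM201 females, 90.1 to 202 in young males, 131 to 415 in old vehicle males and 193 to 483 in old HDM201 males. Endothelial markers (8 genes) summed to 106 to 209 CPM over the 27 mice. Adipose markers (8 genes) summed to 5.29 to 17 CPM, most of it from Adrb3. The defining fat cell genes Adipoq and Plin1 had at most 2 and 3 reads in any mouse, with 0 in 22 and 19 of the 27 mice, and Lep had 0 in 26. Cfd (adipsin), also in this list, had up to 25 reads, with 0 in 16 of the 27 mice, and its highest group mean was 0.841 CPM in old HDM201 males. In whole liver, fewer cells of a type and less RNA per cell cannot be told apart.

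Per kilobase of exon, the mean level in young vehicle females was 66.3 CPM for Plin2, 60.4 for Cideb, 26.4 for Plin5, 8.16 for Cd36, 2.43 for Pparg, 1.81 for Cidec, 1.77 for Plin4, 1.35 for Fabp4, 0.131 for Mogat1 and 0.0196 for Cidea. On this scale Plin2 had the highest mean of the 10 genes, whereas in the authors' FPKM Cideb read 207 to 260 in young females and Plin2 90.5 to 136, and the 2 genes with the lowest level were counted in a handful of reads per mouse. In old vehicle females Cd36 reached 32.1 ± 4.31 CPM per kilobase (SD, n = 4). These levels depend on the exon length used. The ratio of the authors' FPKM to CPM per kilobase had a median near 1 for Cd36 (1.19), Cidea (1.06) and Plin5 (0.922), but was 3.64 for Cideb and 5.1 for Fabp4. For Cidec it ran from 0.126 in young vehicle female 5 to 1.33 in old HDM201 male 1, so that low and high mice lie farther apart in FPKM than in CPM. Of the exon bases of Cideb 76.3% also belong to Nop9 on the opposite strand, and 12.8% of those of Mogat1 to BC035947. The strand setting of the counting is not given in the sources used here, so the counts of Cideb are uncertain.

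**Figure D1:**
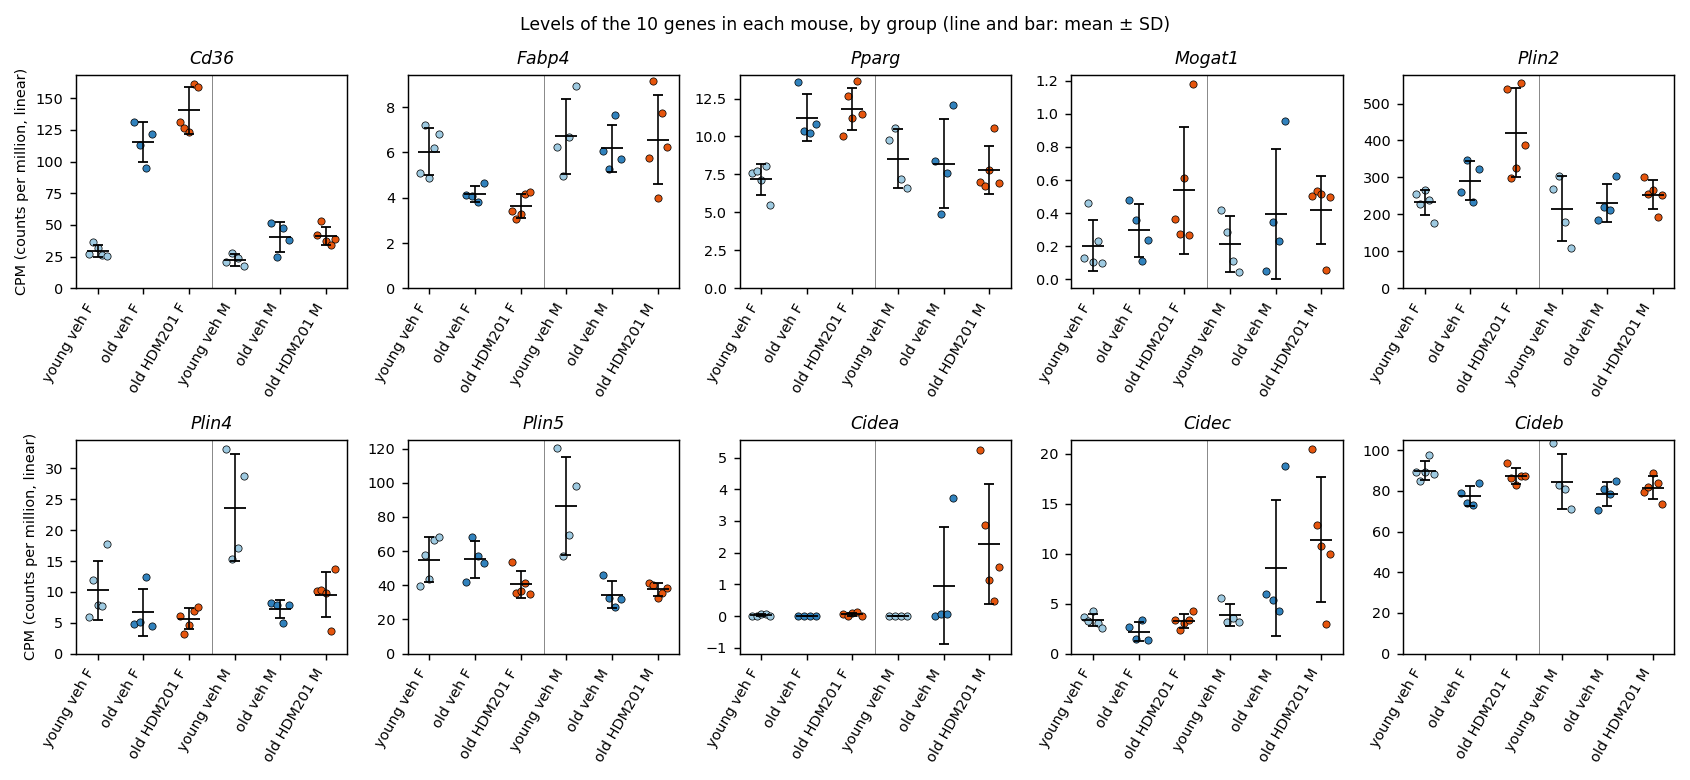
CPM of each of the 10 genes (one panel each, linear axis) in every mouse with counts, by group. Points are mice, and lines with bars are the mean ± SD. Cd36 stands at 95.1 CPM and above in both old female groups and at or below 53.2 CPM in all males, Plin4 and Plin5 are highest in young males, and Cidea is near 0 outside the old males.

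Cd36 (fatty acid translocase, on chromosome 5 at 17781690 to 17888801 of GRCm38) was the gene that separated the old females from the other groups. It read 26.7, 36.3, 31.6, 26.1 and 25.7 CPM in the 5 young vehicle females and 132, 113, 95.1 and 122 CPM in the 4 old vehicle females. The 5 old HDM201 females read 131, 127, 124, 161 and 159 CPM. Each old female, treated or not, thus lay above each young female, and the 2 old female groups overlapped. With age the mean rose 3.94-fold, a log2 fold change of 2.00 (SE 0.12, FDR 2.21e-06, edgeR), and this was called in every fit that left out 1 mouse, with log2 values from 1.93 to 2.09. With HDM201 the ratio of the means was 1.22, a log2 difference of 0.27 (SE 0.11, FDR 0.163).

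In males, Cd36 read 20.8, 28.0, 23.8 and 17.4 CPM in the young vehicle mice and 51.3, 24.9, 47.8 and 37.8 in old vehicle males 2 to 5. The old HDM201 males read 42.0, 53.2, 37.7, 34.0 and 38.9 CPM. Old vehicle male 3 lay within the young range, and the other 3 lay above it. The log2 difference with age was 0.86 (SE 0.22, FDR 0.0597), and without old vehicle male 3 it was 1.03 with an FDR of 0.0194. The call depended on the method. DESeq2 (FDR 0.00606), edgeR without the filter on low counts (0.0125) and edgeR with all 6 groups in one fit (0.00333) called it. It was not called by limma on log2(FPKM + 1) (0.319), a fit that added the males without counts, old vehicle male 1 and young vehicle male 5. On the males with counts alone limma did not call it either. The log2 difference with HDM201 was 0.03 (SE 0.20, FDR 0.963).

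In order of mean CPM the groups stood at 140 ± 18.2 (SD, n = 5) in old HDM201 females, 115 ± 15.5 (n = 4) in old vehicle females, 41.2 ± 7.30 (n = 5) in old HDM201 males, 40.5 ± 11.9 (n = 4) in old vehicle males, 29.3 ± 4.60 (n = 5) in young females and 22.5 ± 4.51 (n = 4) in young males. The only neighbours in this order whose mice did not overlap were the old vehicle females and the old HDM201 males. The interaction of sex and age was 1.15 on the log2 scale (SE 0.26, FDR 0.0240), larger in females, and it missed the FDR of 0.05 without old vehicle female 1 (0.0578) or 4 (0.0534). The sex difference in young mice was 0.37 (SE 0.15, FDR 0.126). Macrophages and endothelium also make Cd36. In old HDM201 females the macrophage sum was 195 to 322 CPM, close to the 206 to 310 of young females. Their Cd36 was 124 to 161 CPM, as high as in old vehicle females. Of the 11 macrophage markers, 9 had a log2 difference with HDM201 below 0 and 2 above it. Gpnmb and Trem2 averaged 0.17 and 0.497 CPM in young females and 3.58 and 2.61 in old vehicle females. In old HDM201 females they averaged 3.78 and 3.25 CPM. The part of macrophages in the level of Cd36 was not tested.

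The genes outside the 10 whose log2(CPM + 1) ran most like that of Cd36 over the 27 mice, among 15293 genes compared, were Rad51b (Pearson r = 0.935), Itga6 (0.920), Abcc4 (0.918), Adcy1 (0.917), Psap (0.910), Prom1 (0.901), Gm40457 (0.900) and Sult2a-ps2 (0.900), the last a pseudogene name. These r values span the 6 groups, so they mainly carry the differences between groups. Prom1, which encodes the membrane protein CD133, averaged 3.75 ± 1.13 CPM in young females (SD, n = 5), 23.2 ± 4.75 in old vehicle females (n = 4), 28.3 ± 5.71 in old HDM201 females (n = 5), and 1.22 to 2.1 CPM in the 3 male groups. Adcy1, an adenylyl cyclase, averaged 0.634 CPM in young females and 27.5 and 42.3 CPM in the old vehicle and old HDM201 females, and at most 1.56 CPM in a male group. Psap, the precursor of the saposins, moved over a narrower range, from 437 CPM in young males to 587 in old vehicle females.

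Fabp4, the cytosolic carrier, went the other way from Cd36 in females. Young females read 5.08, 7.19, 4.89, 6.2 and 6.83 CPM, and old vehicle females 4.13, 4.08, 3.82 and 4.67. Old HDM201 females read 3.44, 3.05, 3.27, 4.15 and 4.25 CPM. The young and old vehicle females did not overlap, and the 2 old groups did. The log2 fold change with age was -0.51 (SE 0.15, FDR 0.0206) and rested on few reads, between 69 and 140 per mouse. It was not called without old vehicle female 1, 2 or 3 or young female 5 (FDR 0.0503, 0.0508, 0.0505 and 0.0510), and in FPKM the groups overlapped (limma on log2(FPKM + 1), FDR 0.333). Males read 4.95 to 8.95 CPM when young, 5.28 to 7.64 when old and 3.97 to 9.14 with HDM201, and all 3 male groups overlapped.

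Pparg, the nuclear receptor of the group, was higher in old females. Young females read 7.62, 7.71, 7.12, 8.04 and 5.45 CPM, and old vehicle females 13.6, 10.3, 10.2 and 10.8. Old HDM201 females read 10.0, 12.7, 11.2, 13.6 and 11.5 CPM. No old female fell within the young range, and HDM201 and vehicle overlapped. The mean rose 1.56-fold with age, a log2 fold change of 0.67 (SE 0.13, FDR 0.00265), called in all 9 fits that left out a mouse. Male groups overlapped throughout, at 6.63 to 10.6 CPM in young, 4.87 to 12 in old vehicle and 6.73 to 10.5 in old HDM201 mice. The difference between the sexes in the age effect was 0.72 (SE 0.29, FDR 0.166). With HDM201 the log2 difference was 0.06 (SE 0.11, FDR 0.787) in females and -0.07 (SE 0.23, FDR 0.921) in males.

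Mogat1 encodes a monoacylglycerol acyltransferase that feeds triglyceride synthesis. It had 1 to 25 reads per mouse, which is below the filter of each comparison of 2 groups. Its CPM ran from 0.0983 to 0.462 in young females, 0.111 to 0.477 in old vehicle females and 0.267 to 1.18 in old HDM201 females. In males it ran from 0.0454 to 0.422, 0.0524 to 0.955 and 0.0537 to 0.534 in the same order. All groups overlapped. Since Mogat1 was below the filter, no difference between 2 groups was tested for it in the filtered edgeR fits. Its sex difference of the HDM201 effect, which was fitted, was not called.

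Plin2, the main droplet coat protein of hepatocytes, read 254, 229, 266, 238 and 177 CPM in young females. Old vehicle females read 261, 347, 234 and 324 CPM and old HDM201 females 538, 299, 326, 556 and 389. HDM201 females 1, 4 and 5 lay above every old vehicle female, and females 2 and 3 lay within their range. The log2 difference with HDM201 was 0.52 (SE 0.19, FDR 0.131), with a range from 0.40 to 0.63 when 1 mouse was left out, none of them called. With age it was 0.35 (SE 0.14, FDR 0.0704), and without old vehicle female 3 it was 0.44 with an FDR of 0.0292. In males the 3 groups overlapped, with 109 to 304 CPM in young, 184 to 305 in old vehicle and 193 to 300 in old HDM201 mice.

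Plin5 ties droplets to mitochondria in tissues that burn fat, and Plin4 coats small droplets, mainly in adipose tissue. They lie side by side on chromosome 17, with Plin4 at 56100591 to 56109803 and Plin5 at 56111601 to 56117596. Among mice with counts, they were the genes that set the young males apart from the old males. For both genes the young males overlapped the young females. Plin4 read 33.1, 15.4, 17.2 and 28.8 CPM in young males and 8.17, 7.89, 5.00 and 7.85 in old vehicle males 2 to 5. Plin5 read 120, 57.0, 69.7 and 98.0 CPM in young males and 46.0, 32.7, 27.3 and 32.1 in the old vehicle males. Young males 1 and 4 were the highest for both genes, and young and old males did not overlap for either. Plin4 fell by 1.70 on the log2 scale (SE 0.26, FDR 0.0104) and Plin5 fell by 1.32 (SE 0.24, FDR 0.0201). Plin4 was called in all 8 fits that left out a mouse, whereas Plin5 was not called without old vehicle male 4 (FDR 0.0680) or young male 4 (FDR 0.0608).

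With HDM201 the old males read 10.1, 10.4, 9.79, 3.71 and 13.7 CPM of Plin4 and 41.6, 40.4, 32.6, 35.4 and 38.3 CPM of Plin5. These overlapped the old vehicle males, and neither gene reached the range of the young males. The log2 differences with HDM201 were 0.41 (SE 0.30, FDR 0.600) for Plin4 and 0.13 (SE 0.14, FDR 0.723) for Plin5.

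Females gave another picture for these 2 perilipins. Plin5 read 39.6, 57.6, 43.5, 66.4 and 68.0 CPM in young and 42.2, 68.0, 57.3 and 53.2 in old vehicle females, and the groups covered the same range. Old HDM201 females read 53.6, 35.7, 36.7, 41.5 and 34.8 CPM, of which 4 lay below every old vehicle female. That log2 difference was -0.46 (SE 0.15, FDR 0.0955), and DESeq2 called it with an FDR of 0.0462. Without old HDM201 female 1, edgeR also called it, at -0.58 with an FDR of 0.0324. The age effect on Plin5 differed between the sexes by 1.35 on the log2 scale (SE 0.32, FDR 0.0273), and this call was lost without old vehicle female 2 or 4, old vehicle male 4 or young male 4 (FDR 0.0603, 0.0529, 0.0632 and 0.0530). Plin4 read 5.91, 11.9, 7.95, 7.69 and 17.8 CPM in young, 4.82, 5.20, 12.4 and 4.43 in old vehicle and 6.04, 3.16, 4.70, 6.95 and 7.50 in old HDM201 females, all overlapping.

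CIDEA and CIDEC enlarge droplets in adipose tissue and in fatty liver, and Cidea is otherwise near silent in lean liver. Cidea read 0 counts in all 4 young males and all 4 old vehicle females, and at most 1 count in any young female and 3 in any old HDM201 female. In old vehicle males 2 to 5 it read 0, 0.0580, 0.0574 and 3.71 CPM, and in old HDM201 males 5.25, 2.89, 1.15, 0.483 and 1.55 CPM. All 5 HDM201 males lay above 3 of the 4 old vehicle males, and vehicle male 5 lay above 4 of the 5 HDM201 males. Against a floor of 3 counts over the young males, Cidea was at least 25.3-fold higher in the old vehicle males, on 72 reads of which 70 came from male 5, and at least 61.7-fold higher in the old HDM201 males, on 205 reads. Such floors cover counting error only. The fitted log2 difference of HDM201 against vehicle was 1.23 (SE 1.09, FDR 0.666), and it ran from 0.65 without HDM201 male 1 to 5.68 without vehicle male 5.

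Cidec read 5.54, 3.18, 3.53 and 3.18 CPM in young males, 6.02, 5.34, 4.25 and 18.8 in old vehicle males 2 to 5 and 20.5, 12.9, 10.8, 3.01 and 9.95 in old HDM201 males. Vehicle male 5 was thus the highest of its group for both CIDE genes, HDM201 male 1 was the highest of its group for both, and HDM201 male 4 the lowest for both. The log2 difference with age was 1.16 (SE 0.45, FDR 0.164) and 0.45 without old vehicle male 5. That with HDM201 was 0.41 (SE 0.52, FDR 0.780). Females stayed low, at 2.56 to 4.26 CPM in young, 1.37 to 3.38 in old vehicle and 2.35 to 4.25 in old HDM201 mice, all overlapping. Among males with counts, the adipose marker sum, most of which is Adrb3, was 7.16 CPM in vehicle male 5 and 6.37 CPM in HDM201 male 1, against 9.48 to 11.5 CPM in the other old vehicle males and 9.61 to 17 in the other HDM201 males. Adipoq and Lep had 0 counts in every old male with counts. In FPKM, Adipoq read up to 0.143 in these males (old vehicle male 3) and 0.187 in old vehicle male 1. The mean of Cfd was 0.841 CPM in old males given HDM201, 0.162 in those given vehicle and 0.0753 in the young. Old vehicle male 1, with FPKM values alone, had both the highest Cidec and the highest adipose sum of the males, at 9.94 FPKM against 2.22 to 7.41 in the others. The part of adipose tissue in the levels of Cidea and Cidec was not tested.

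**Figure D2:**
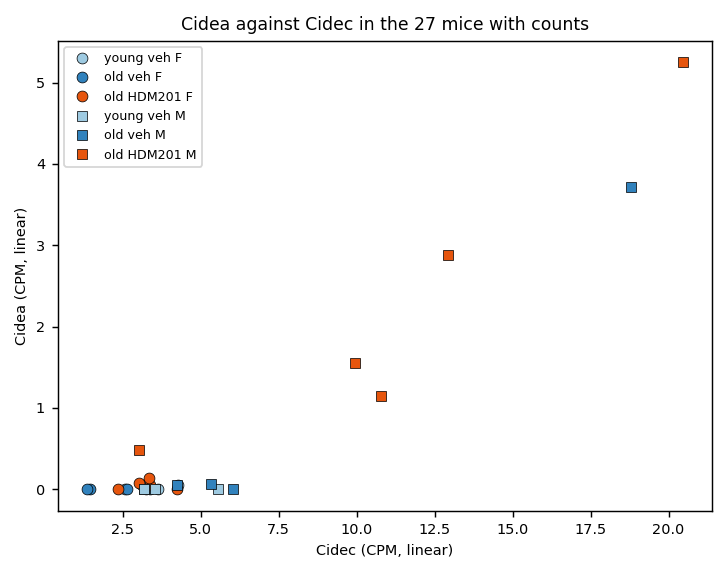
CPM of Cidea (vertical, linear) against CPM of Cidec (horizontal, linear) in the 27 mice with counts, colored by group, with circles for females and squares for males. Old vehicle male 5 and old HDM201 males 1 and 2 lie at the upper right, with Cidea at 3.71, 5.25 and 2.89 CPM, and all females and young males lie along the bottom at or below 0.134 CPM.

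Cideb, the CIDE gene of hepatocytes that acts in the loading of very low density lipoprotein with lipid, stood at a narrow range of 70.7 to 103 CPM over the 27 mice. Young females read 89.2, 84.7, 89.4, 97.4 and 88.5 CPM and old vehicle females 79.0, 74.2, 73.1 and 83.7. The 2 groups did not overlap, and the log2 difference was -0.19 (SE 0.07, FDR 0.0612). DESeq2 called it (FDR 0.0266), as did limma on log2(FPKM + 1), at -0.30 with an FDR of 0.0165. Old HDM201 females read 93.6, 86.4, 82.8, 87.2 and 87.1 CPM, a log2 difference from vehicle of 0.16 (SE 0.06, FDR 0.139). Since most exon bases of Cideb are shared with Nop9 and the strand setting is not given, these counts are uncertain. The authors' FPKM of Cideb stood at a median of 3.64 times its CPM per kilobase.

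Counted over the genes that passed the filter in each comparison, with age in females 2 of 8 (Cd36 and Pparg) were called higher and 1 (Fabp4) lower, beside 31.8% of all 14233 genes tested, and 4 of 8 did not overlap, beside 25.8%. With age in males 2 of 8 (Plin4 and Plin5) were called, both lower, beside 3.69% of 13755, and the same 2 did not overlap, beside 13.5%. With HDM201 in females 0 of 8 were called by edgeR and 0 did not overlap, beside 5.25% called and 9.93% without overlap of 14445. DESeq2 called 1 (Plin5), beside 1329 over all genes. In edgeR 4 of 8 had an unadjusted p under 0.05, beside 3247 of the 14445. With HDM201 in males 0 of 9 were called by edgeR and 0 did not overlap, beside 0.00709% (1 gene) and 4.03% of 14109. DESeq2 called 0, beside 169 over all genes. In edgeR 0 of 9 had an unadjusted p under 0.05, beside 1710 of the 14109. Between the sexes in young mice 1 of 8 was called (Plin4, -1.21 in females, SE 0.31, FDR 0.0283) and 0 did not overlap, beside 10.5% and 12.8% of 13875. That call was lost in 6 of 9 fits that left out a mouse, with an FDR of up to 0.0871. For the sex difference of the age effect 2 of 8 were called (Cd36 and Plin5), beside 3.92% of 14721. For that of the HDM201 effect 0 of 10 were called, beside 0.107% of 14974. Of these 10, 1 had an unadjusted p under 0.05, beside 2774 of the 14974. The filter on low counts kept Cidea only in the male HDM201 comparison and its sex difference, and Mogat1 only in the latter. The contrasts with age and with HDM201 share the old vehicle mice of each sex.

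**Figure D3:**
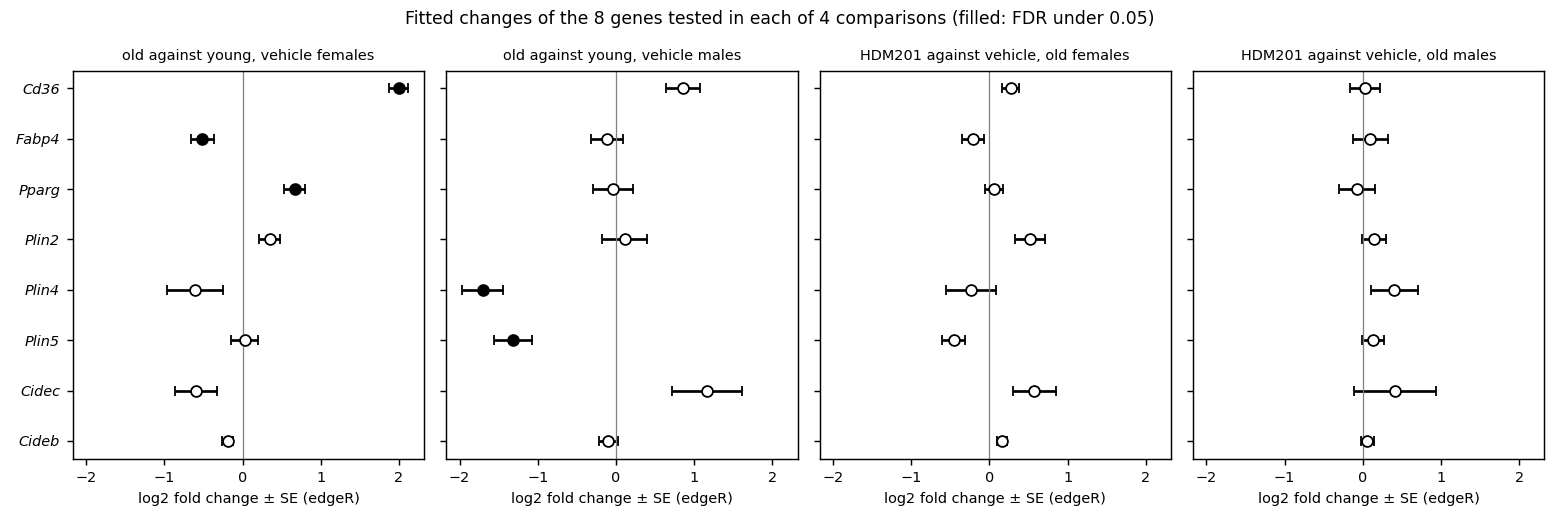
Fitted log2 fold changes (horizontal, ± SE) of the 8 genes that passed the filter in all 4 comparisons, one panel per comparison. Filled points have an FDR under 0.05: Cd36 (2.00), Pparg (0.67) and Fabp4 (-0.51) with age in females, and Plin4 (-1.70) and Plin5 (-1.32) with age in males.

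Both males that had FPKM values and no counts took no part in the fits on counts above. They had not entered the CPM by which the genes were chosen, but did enter the limma fit of Cd36 with age in males. Old vehicle male 1 read 24.6 FPKM of Cd36, against 8.03 to 17.0 in the other old vehicle males, and 25.9 FPKM of Cidec, against 0.925 to 9.24. Its Cidea was 2.26 FPKM, second to male 5 at 3.31, and its Pparg was 8.08 FPKM, against 3.51 to 6.04. It was the highest of its group for Cd36, Cidec and Pparg, and also for Fabp4, Plin2 and Plin4, and of the 5 old vehicle males it and male 5 alone had Cidea above 0.1 FPKM. This library stood apart in other ways. Its macrophage markers summed to 468 FPKM, against 60 to 194 in the other old vehicle males, its adipose markers to 9.94 FPKM, against 3.4 to 4.37, and 13308 genes were above 1 FPKM, against 11331 to 11812. Their part in its values was not tested.

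Young vehicle male 5 departed from the other 4 young males. According to the methods, a young male with a wound and a possible infection was kept out of the analyses. They do not say which mouse it was, and this is the young male without counts. Its Plin5 was 12 FPKM, against 25.1 to 52.0, and its Plin4 was 0.575 FPKM, against 1.77 to 3.90. Both values lay in the range of the old vehicle males, at 11.3 to 19.7 FPKM of Plin5 and 0.572 to 1.82 FPKM of Plin4. Its Cd36 was 12.6 FPKM, against 5.85 to 8.76, its Fabp4 was 19.4 FPKM, against 4.89 to 9.46, and its Cideb was 123 FPKM, against 186 to 250. Its Saa2, an acute phase gene named after its value was seen, read 2.87e+04 FPKM, against 19.6 to 5.07e+03 in the other young males, and its macrophage markers summed to 216 FPKM, against 36.7 to 87.5. Their part in its low perilipin values was not tested. With this mouse the young and old males overlapped for Plin4 and Plin5. For Plin5 the overlap rests on this mouse alone, and for Plin4 old vehicle male 1, at 1.82 FPKM, also lay above the lowest of the other young males, at 1.77. Over all males with FPKM, limma on log2(FPKM + 1) gave differences with age of -0.60 (FDR 0.442) for Plin4 and -1.0 (FDR 0.274) for Plin5. On the males with counts alone, these were -0.96 (FDR 0.0714) and -1.26 (FDR 0.0553). Neither gene was called in FPKM, with or without the added males.

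**Figure D4:**
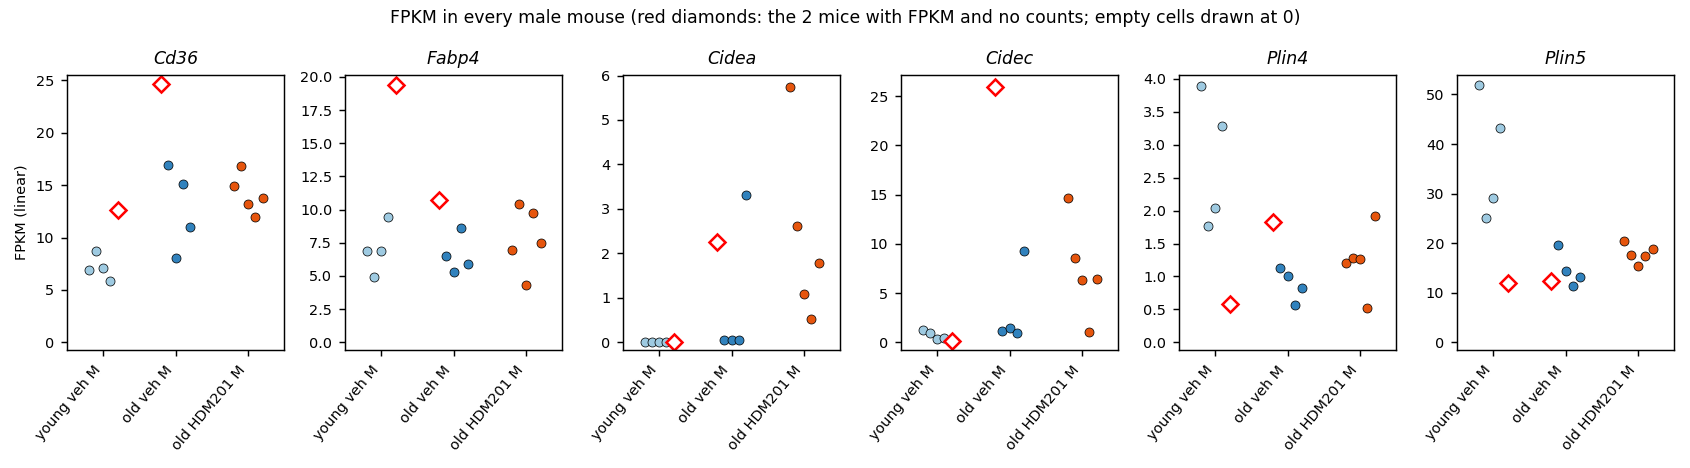
FPKM (linear) of 6 of the genes in every male, by group. Red diamonds mark the 2 males with FPKM and no counts, and empty cells are drawn at 0. The diamond in the old vehicle group is the highest of its group for Cd36 (24.6) and Cidec (25.9), and the one in the young group lies with the old mice for Plin4 (0.575) and Plin5 (12).

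Genes that work beside these 10 were read from 5 lists, which hold none of the 10. Among genes of fatty acid uptake and activation, 2 of 15 were called higher and 4 lower with age in females. Lpl, the lipase that frees fatty acids from lipoproteins, had a log2 fold change of 1.31 (SE 0.17, FDR 0.000240), and the carriers Fabp5 and Fabp2 had -1.73 (SE 0.22, FDR 0.000175) and -0.97 (SE 0.16, FDR 0.000815). Fabp2 was the gene of this list called with HDM201 in females, where it rose by 0.90 (SE 0.17, FDR 0.0155). It averaged 42.2 ± 8.32 CPM in young females (SD, n = 5), 21.3 ± 4.15 in old vehicle females (n = 4) and 39.8 ± 9.25 in old HDM201 females (n = 5).

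In triglyceride synthesis, 2 of 11 genes were called higher and 5 lower with age in females. Gpat3, an acyltransferase, was at 1.00 (SE 0.21, FDR 0.00398), and the 3 lipins Lpin1, Lpin2 and Lpin3, which make diacylglycerol, were at -1.69 (FDR 0.0114), -0.75 (FDR 0.0230) and -0.64 (FDR 0.0248). Young and old vehicle females overlapped for Lpin1 and Lpin2 and not for Lpin3. Lpin1 ran from 519 to 1.07e+03 CPM in young and from 102 to 527 in old vehicle females. With HDM201 in females Agpat3 was called higher (0.31, FDR 0.0467) and Gpat4 lower (-0.32, FDR 0.0368). Among genes of the lipid droplet coat, its formation and lipolysis, 2 of 15 were called higher (Fitm1, 1.81, FDR 0.000808, and Pnpla3, 1.27, FDR 0.00314) and 1 lower (Pnpla2, the main triglyceride lipase, -0.69, FDR 0.000775) with age in females. In males Pnpla3 was the 1 gene of 15 called with age, at 2.63 (SE 0.35, FDR 0.00577), from a mean of 4.33 ± 1.82 CPM in young (SD, n = 4) to 26.5 ± 8.43 in old vehicle males (n = 4). None of these 15 was called with HDM201 in either sex. At an unadjusted p under 0.05 were 4 in females, beside 3247 of 14445 genes, and 2 in males, beside 1710 of 14109.

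Of the nuclear receptors and regulators, 2 of 15 were called higher and 2 lower with age in females. Ppard, the sister receptor of Pparg, rose by 1.57 (SE 0.28, FDR 0.00130), and the coactivator Ppargc1b fell by 1.28 (SE 0.28, FDR 0.00445). With HDM201 in females Ppard was the only one of the 15 called, at -1.26 (SE 0.31, FDR 0.0401), while Pparg was at 0.06. Ppard averaged 13.1 ± 1.96 CPM in young, 38.2 ± 18.1 in old vehicle and 16.2 ± 5.01 in old HDM201 females (SD, n = 5, 4 and 5). Other target genes of the PPAR receptors made up the last list, of which 7 of 14 were called higher and 0 lower with age in females, among them Pdk4 (1.67, FDR 0.000424), Ucp2 (1.19, FDR 0.000158), Acot1 (1.08, FDR 0.00382) and Cyp4a14 (1.06, FDR 0.00449). With age in males 1 of 14 was called, Cyp4a10, which was lower (-1.78, SE 0.40, FDR 0.0413). With HDM201 in females 2 of 14 were called, both higher. Cyp4a10, a fatty acid omega-hydroxylase, rose by 0.73 (SE 0.08, FDR 0.00239), and Fgf21, the fasting hormone of the liver, by 1.90 (SE 0.50, FDR 0.0491). The 2 groups did not overlap for Cyp4a10. For Fgf21 they did, at 1.34 to 2.23 CPM in old vehicle and 1.47 to 13.3 in old HDM201 females. In males HDM201 called 0 genes of the 5 lists by edgeR. Over all 5 lists 17 had an unadjusted p under 0.05, beside 1710 of all 14109 genes tested. In the order given above, these were 0 of 15, 7 of 11, 2 of 15, 5 of 15 and 3 of 14 genes.

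**Figure D5:**
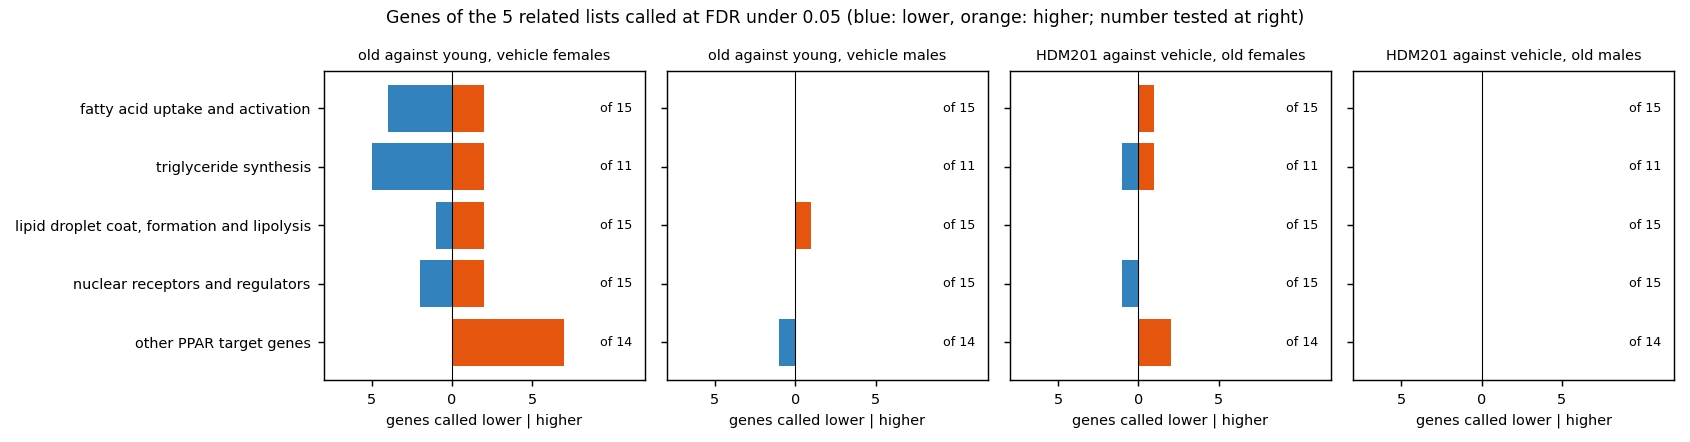
Number of genes of the 5 related lists called at an FDR under 0.05 in each of 4 comparisons, with lower calls drawn to the left in blue and higher calls to the right in orange, and the number tested at the right. The other PPAR target genes have 7 of 14 called higher with age in females, and no list has a call with HDM201 in males.

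Set beside all genes, the median log2 change of the other PPAR target genes with age in females was 0.31, and 0.009 over all genes tested. It was -0.15 for uptake and activation, -0.26 for triglyceride synthesis, -0.06 for the droplet list and -0.08 for the 8 genes of the present group. Since 31.8% of all genes were called in this comparison, 6 of 15, 7 of 11, 3 of 15, 4 of 15 and 7 of 14 called stand beside that share for the 5 lists in the order given above. Macrophage markers moved in the same comparisons, with 10 of 11 called higher with age in females, 4 of 11 higher with age in males and 7 of 11 lower with HDM201 in females, and hepatocyte markers had 3 of 8 called lower with age in females. Their part in the changes of Cd36, Pparg, Fabp4 and Ppard was not tested.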

How the data were processed

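Fresh liver RNA was sequenced as polyA libraries. For alignment the authors used STAR in 2 passes on mm10, and they deposited raw read counts per gene (HTSeq, not normalized) for 27 mice and FPKM values (Cufflinks, meant for display) for 29. Neither versions nor the strand setting of the counting are given in the sources used here. Of the empty FPKM cells in mice with counts 94.8% had a count of 0, and empty cells were read as 0. The number of columns left out was 0. FPKM sums ran from 690769 to 6010507 per mouse, so FPKM served only for the males without counts and as an alternative.

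Each comparison was fitted on its own mice with edgeR 4.0.16 in R 4.3.3 (filterByExpr at 10 counts and a total of 15, TMM, and the two-sided quasi-likelihood test), with Benjamini-Hochberg adjustment over all genes tested and calls at an FDR under 0.05. The code was tested on simulated data. CPM used TMM-scaled totals. FPKM were fitted with limma 3.58.1 over genes with a mean of at least 0.1, and DESeq2 1.42.0 was run as an alternative. Python 3.11.15 made the summaries. The design took 5 males per group, and the counts hold 4 young and 4 old vehicle males.

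The members and lists were chosen with earlier results of these data known. All 10 genes were named. Of each list, at most the 4 called genes with the largest change per comparison could be named, and the 8 genes most correlated with Cd36. Mice are separate animals. Coordinates and exons come from GENCODE vM21 (GRCm38, the assembly of mm10) and promoters from RefSeq. Replicate numbers do not pair mice: the correlation of deviations of mice with the same number ran from -0.222 to 0.222.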

Additional observations from a re-analysis of the deposited data

Results flagged for a closer look

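In 7 cases 1 mouse stood apart from the rest of its group by Dixon's criterion at the 95% level, which chance alone gives in about 1 of 20 groups. The criterion was applied to each of the 10 genes in each of the 6 groups. Groups in which Cidea had 0 counts in every mouse were left out. Old vehicle male 5 had 3.71 CPM of Cidea and 18.8 CPM of Cidec, far above the other 3 old vehicle males with counts. Young vehicle male 1 had 5.54 CPM of Cidec, above the other young males. In old HDM201 male 4, Pparg was high at 10.5 CPM and Mogat1 low at 0.0537 CPM. Plin4 was high in old vehicle female 3 at 12.4 CPM and low in old vehicle male 4 at 5.00 CPM. No sample was removed for this.

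The effect of age differed between the sexes, by the interaction term, for Cd36 (1.15 on the log2 scale, edgeR FDR 0.0240) and Plin5 (1.35, FDR 0.0273). With age Cd36 changed by 2.00 in females and 0.86 in males, and Plin5 by 0.02 in females and -1.32 in males. The old females and old males also differed in age.

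Male 1 of the old vehicle group, which has FPKM values and no counts, lay above the highest young vehicle male for 5 genes. It read 24.6 FPKM of Cd36 against at most 12.6 in young males, 8.08 of Pparg against 5.40, 2.26 of Cidea against empty cells in all young males, 25.9 of Cidec against 1.24 and 0.927 of Mogat1 against 0.859. These values were not tested.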

How the results depend on the processing

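Of 1184 values of the 10 genes under an alternative, 1071 kept their direction and their call or lack of one. Another 44 lost the call and 25 gained it with the same direction, and 44 changed sign, none of these called. Calls were made at an FDR of 0.05, or at 0.01 in the alternative with that threshold. With age in females Cd36 and Pparg were called under every alternative run, and Fabp4 was lost at an FDR of 0.01, in FPKM and with the block. RLE size factors changed no call of the 10 genes. Read numbers limit Cidea, Mogat1 and Fabp4. The cause of the differences between settings was not tested.

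In the order HDM201 in females, HDM201 in males, age in females, age in males, sex in young mice, sex difference of the HDM201 effect and sex difference of the age effect, edgeR called 758, 1, 4530, 507, 1462, 16 and 577 genes over all genes tested, and 0, 0, 3, 2, 1, 0 and 2 of the 10 genes. DESeq2 called 1329, 169, 4798, 1309, 2124, 664 and 1173, and 1, 0, 4, 3, 2, 0 and 3 of the 10. Without the filter on low counts edgeR called 964, 22, 4593, 968, 1710, 122 and 641, and 1, 0, 4, 3, 2, 0 and 3 of the 10. All 6 groups in one fit gave 208, 6, 4674, 2007, 2483, 11 and 852, and 0, 0, 3, 4, 2, 0 and 2 of the 10. At an FDR of 0.01 the counts were 110, 0, 2513, 82, 480, 0 and 48, and 0, 0, 2, 0, 0, 0 and 0 of the 10. limma on log2(FPKM + 1) gave 51, 1, 3913, 58, 458, 0 and 220, and 0, 0, 4, 0, 0, 0 and 0 of the 10, and limma on log2(FPKM + 0.1) gave 60, 1, 3951, 78, 463, 0 and 192, with the same counts of the 10. On the mice with counts only, an alternative added after seeing the data, limma on log2(FPKM + 1) gave 2 genes for HDM201 in males, 167 for age in males, 669 for sex, 0 and 591 for the sex differences, and 0, 0, 0, 0 and 2 of the 10.

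The replicate number as a block gave 370, 1, 3462, 24, 850, 0 and 34 genes, and 0, 0, 3, 0, 2, 0 and 0 of the 10, but the numbers do not pair the mice. Under the block, log2 values changed sign for Pparg with HDM201 in males (0.0055), and in the sex difference of the HDM201 effect for Pparg (-0.031), Cidec (-0.082) and Cideb (-0.010).

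When each mouse was left out in turn, edgeR called 185 to 956, 0 to 13, 3502 to 4494, 144 to 579, 764 to 1864, 0 to 314 and 207 to 1193 genes, and 0 to 1, 0 to 0, 2 to 5, 1 to 3, 0 to 2, 0 to 0 and 0 to 3 of the 10. Among log2 values that changed sign this way, those with HDM201 in males ran from -0.15 to 0.16 for Cd36, -0.049 to 0.23 for Fabp4 and -0.26 to 0.17 for Pparg, and with HDM201 in females from -0.39 to 0.23 for Plin4. With age in males they ran from -0.17 to 0.014 for Cideb, -0.24 to 0.058 for Fabp4, -0.11 to 0.31 for Plin2 and -0.27 to 0.14 for Pparg, and with age in females from -0.095 to 0.14 for Plin5. Between young females and males they ran from -0.31 to 0.0081 for Cidec, -0.29 to 0.012 for Fabp4 and -0.11 to 0.31 for Plin2. In the sex difference of the HDM201 effect they ran from -2.41 to 2.65 for Cidea, -0.56 to 0.49 for Cidec and -0.10 to 0.33 for Pparg.

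In FPKM the signs changed as follows, given for a pseudocount of 1, for 0.1 and, where 3 values stand, for a pseudocount of 1 on mice with counts only. With HDM201 in males Cd36 was at -0.012 and -0.0071. With age in males Pparg was at 0.29, 0.34 and 0.10, and Cideb at 0.13, 0.13 and 0.025. In the sex difference of the HDM201 effect Cidea was at -0.66, -1.33 and -0.89, Cidec at -0.39, -0.35 and -1.01, and Cideb at -0.027 and -0.027.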

Other observations

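Sex separated several genes of the related lists in young vehicle mice. Pnpla3, which encodes a droplet protein tied to fatty liver, was 3.11 higher in females on the log2 scale (SE 0.34, FDR 0.000161, edgeR), with means of 37.2 ± 13.6 CPM in young females (SD, n = 5) and 4.33 ± 1.82 in young males (n = 4). Fitm1, which acts in droplet formation, was lower in females, at -2.50 (SE 0.37, FDR 0.00132). Vldlr, the receptor for very low density lipoprotein, was higher in females at 1.68 (SE 0.20, FDR 0.000309), and its mean was 17.6 CPM in old vehicle females and 2.03 in old vehicle males. For Fabp5 the age effect differed between the sexes by -2.66 (SE 0.42, FDR 0.00313). It averaged 165 ± 62.1 CPM in young and 49.1 ± 5.64 in old vehicle females, and 66.7 ± 31.1 and 128 ± 38.6 CPM in young and old vehicle males. Acot1 and Cyp4a14 also differed in their age effect, by 2.45 (FDR 0.0111) and 2.62 (FDR 0.0465), higher with age in females.

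Single mice led several of the 10 genes at once. Old vehicle male 5 was the highest of the 4 old vehicle males with counts for 6 genes, Pparg, Cidea, Cidec, Cideb, Plin2 and Mogat1. Old HDM201 male 4 was the lowest of its group for 6 genes and the highest for Pparg. Young vehicle male 1 was the highest of its group for Cidec, Cideb, Plin4, Plin5 and Mogat1, and young vehicle male 4 was the lowest for 6 genes.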
